A study of Arabidopsis thaliana with 8 samples.

Results

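The genes described here are the 38 nuclear genes that stood clearly above wild type in floral buds of the transgenic line amiRNACWIN24 under the rule given next, out of 33977 genes in the deposited expression table. They were chosen by their measured levels. The mean of the 4 amiRNACWIN24 libraries had to be 2 RPKM or more, and the lowest amiRNACWIN24 library had to exceed the highest wild-type library more than 2 times. RPKM is a read count scaled to exon length in kilobases and to library size. The threshold was met by 46 genes, which is 0.267% of the 17253 genes with an amiRNACWIN24 mean of 2 RPKM or more, and 8 of them were left out by name: the indole glucosinolate genes CYP79B2, CYP79B3 and IGMT5, the clock genes FKF1, PRR5, TOC1 and GI, and the beta-amylase gene BAM3. Because the levels in the same 8 libraries chose the genes, their differences between the genotypes are given as a description, with no test.

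The amiRNACWIN24 plants are transgenic line 4-3 of Arabidopsis thaliana, in which the promoter of the ovule identity gene STK (SEEDSTICK) drives an artificial microRNA whose name points to 2 cell wall invertase genes, CWINV2 and CWINV4. They were compared with untransformed wild-type plants (WT), with 4 biological replicates of pooled floral buds of stages 8 to 10 in each group. A single transgenic line was sequenced, so the construct and other properties of that line cannot be told apart. In these bulk samples, fewer cells of a type and less RNA per cell cannot be told apart either.

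CWINV4 held 13.8 ± 1.76 RPKM in amiRNACWIN24 and 26.9 ± 2.61 RPKM in WT, and STK itself held 0.599 ± 0.156 RPKM in amiRNACWIN24 and 9.82 ± 1.44 RPKM in WT (SD, n = 4 each). CWINV2 was near 0 in every library but WT replicate 1, which held 2.75 RPKM. The libraries had 22.5 to 26.2 M reads (mega, in genes) in amiRNACWIN24 and 25.5 to 26.7 M reads in WT. All 9 floral organ identity markers were detected in all 8 libraries. Marker sums for other tissues also differed. The 15 tapetum genes summed to 568 to 1520 RPKM in amiRNACWIN24 and 235 to 853 RPKM in WT, ranges that overlap. The 10 genes listed as late pollen markers summed to 638 to 971 RPKM in amiRNACWIN24 and 1850 to 2890 RPKM in WT. Most of that sum came from the pollen coat genes GRP14 and GRP17, at 188 and 579 RPKM in amiRNACWIN24 and 651 and 1376 RPKM in WT. The 10 photosynthesis genes summed to 13700 to 16700 RPKM in amiRNACWIN24 and 19300 to 22700 RPKM in WT. No marker of these lists was at 0 in all libraries, and their part in the results that follow was not tested.

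Several of the 38 genes belong to known systems. Plastids store glucose as starch granules by day, and at night dikinases phosphorylate the granule surface so that beta-amylases and debranching enzymes can degrade it, while cytosolic enzymes process the released maltose. The circadian clock times such processes through morning repressors and evening genes, and many evening genes carry a short promoter sequence, the evening element, that morning MYB factors bind. TIR-NBS-LRR proteins are intracellular immune receptors, and pentatricopeptide repeat proteins bind organelle RNAs.

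The 38 genes covered a wide range of levels. Their means ran from 2.20 to 347 RPKM in amiRNACWIN24 and from 0 to 140 RPKM in WT, with medians of 6.49 and 1.61 RPKM. Over all 17253 genes with an amiRNACWIN24 mean of 2 RPKM or more, the medians were 14.1 RPKM in amiRNACWIN24 and 13.0 RPKM in WT. The ratio of the group means had a median of 3.4 over the 37 genes with a WT value above 0, and ran from 2.32 for PHS2 to 19.9 for AT4G02720. For 5 of the 37 it was under 2.5, and for 12 it was over 4. The groups do not overlap for any of the 38 genes, as the rule requires, whereas 29.3% of all 17253 genes had every amiRNACWIN24 value above every WT value.

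**Figure D1:**
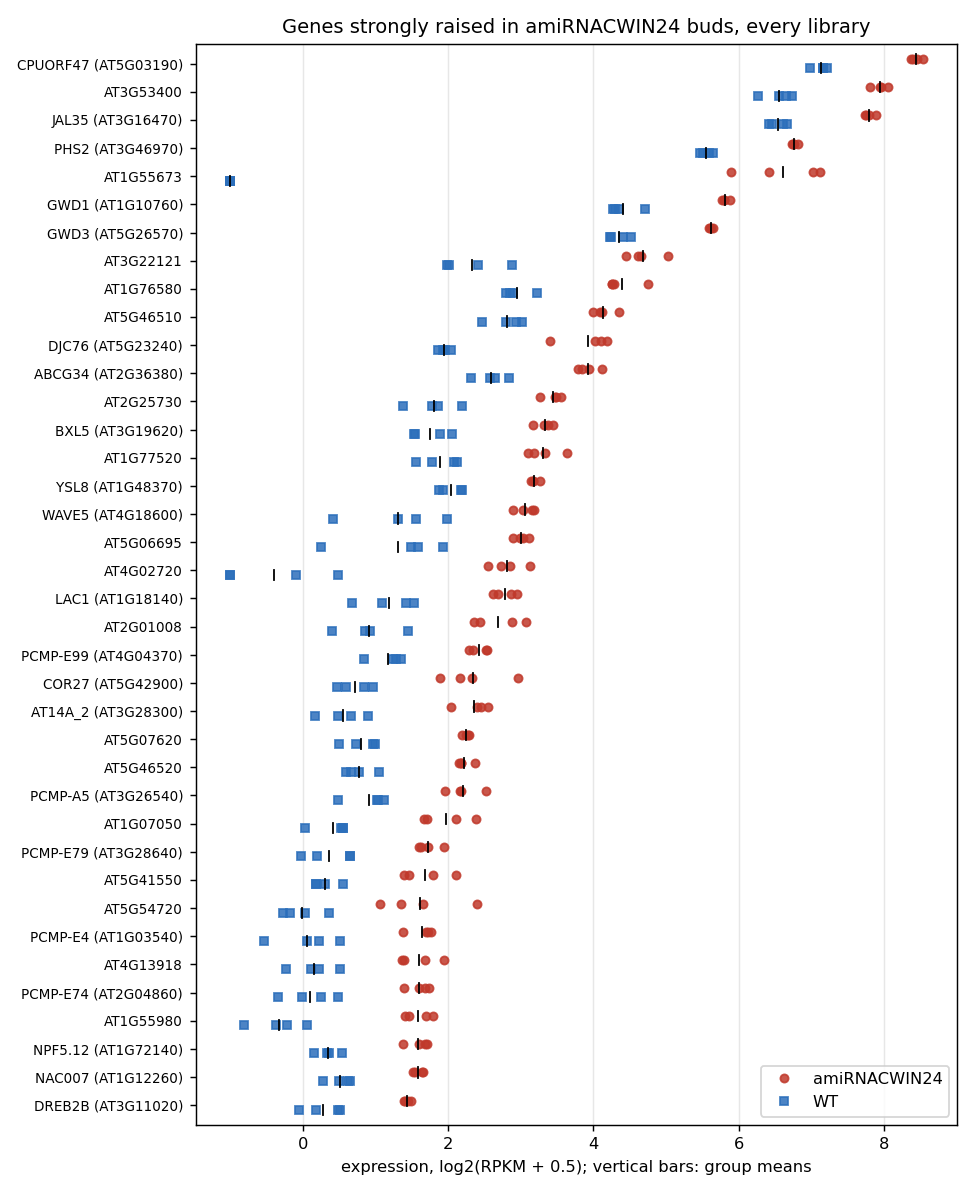
Expression of the 38 genes as log2(RPKM + 0.5) in each library, with circles for amiRNACWIN24 above squares for WT and a vertical bar at each group mean, ordered by the amiRNACWIN24 mean. CPUORF47, AT3G53400, JAL35 and PHS2 lead at over 100 RPKM in amiRNACWIN24, and AT1G55673 stands apart with all WT libraries at 0.

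Enzymes of starch breakdown were among the most abundant of the set. GWD1, the glucan, water dikinase also known as SEX1, stood at 55.3, 55.2, 58.3 and 54.3 RPKM in amiRNACWIN24 replicates 1 to 4, against 25.7, 18.8, 19.1 and 19.8 RPKM in WT replicates 1 to 4. GWD3, the phosphoglucan, water dikinase that acts on glucans GWD1 has already phosphorylated, stood at 49.5, 48.3, 48.8 and 47.9 RPKM in amiRNACWIN24 and at 22.3, 18.2, 18.3 and 20.8 RPKM in WT. PHS2, the cytosolic alpha-glucan phosphorylase, stood at 105, 108, 112 and 107 RPKM in amiRNACWIN24 and at 49.5, 45.2, 43.9 and 47.8 RPKM in WT. The amiRNACWIN24 libraries lay close together in all these genes, and WT replicate 1 was the highest WT library in each of them. GWD1 averaged 55.8 ± 1.72 RPKM in amiRNACWIN24 and 20.9 ± 3.28 RPKM in WT, GWD3 48.6 ± 0.698 and 19.9 ± 1.99 RPKM, and PHS2 108 ± 2.75 and 46.6 ± 2.54 RPKM (SD, n = 4 each). None of these genes met the rule with median-of-ratios scaling.

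The promoters of both dikinase genes hold an evening element. The sequence AAAATATCT, searched on both strands from 250 bases before to 50 bases after the gene start, was found in 4 of the 38 promoters (10.5%) and in 3.15% of the 17218 promoters of genes with an amiRNACWIN24 mean of 2 RPKM or more. Among the 4 is also PCMP-E74, a pentatricopeptide repeat gene. The promoters of GWD1, GWD3 and PCMP-E74 are shown here because they carry the element, from 250 bases before to 20 bases after the start, 5′ to 3′ on the strand of the gene, from RefSeq's TAIR10.1 assembly, with the element in capitals on either strand.
GWD1 (chr1:3590909-3591178, minus strand): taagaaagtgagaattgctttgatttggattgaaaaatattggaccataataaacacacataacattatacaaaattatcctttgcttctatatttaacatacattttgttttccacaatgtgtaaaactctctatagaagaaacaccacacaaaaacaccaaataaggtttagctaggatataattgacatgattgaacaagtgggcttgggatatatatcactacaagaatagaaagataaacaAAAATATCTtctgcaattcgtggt
GWD3 (chr5:9261229-9261498, plus strand): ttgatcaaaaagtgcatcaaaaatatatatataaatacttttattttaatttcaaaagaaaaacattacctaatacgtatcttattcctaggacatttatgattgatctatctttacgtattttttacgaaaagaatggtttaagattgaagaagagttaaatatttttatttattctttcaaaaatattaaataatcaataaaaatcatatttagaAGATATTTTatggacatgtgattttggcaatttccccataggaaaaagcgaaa
PCMP-E74 (chr2:1708907-1709176, minus strand): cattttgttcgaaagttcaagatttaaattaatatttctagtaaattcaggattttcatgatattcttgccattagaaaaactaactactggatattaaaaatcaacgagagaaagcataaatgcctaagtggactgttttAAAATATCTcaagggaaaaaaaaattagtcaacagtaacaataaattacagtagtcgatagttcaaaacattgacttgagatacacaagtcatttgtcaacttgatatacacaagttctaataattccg

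The first base of the element lay 4 bases before the start in GWD1, 33 in GWD3 and 109 in PCMP-E74. The related site AAAAATCT was found in 3 promoters (7.89%, against 8.24% of all), those of PCMP-E79, YSL8 and AT5G46510. A match is a stretch of letters, not a measured binding site.

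The G-box CACGTG, a palindrome bound by bZIP and bHLH factors, was in 5 of the 38 promoters (13.2%, against 9.07% of all). It was present in PHS2, in DREB2B, in the nitrate and peptide transporter family gene NPF5.12, and in both genes annotated as a peptide upstream protein, CPUORF47 and AT3G53400. The last pair and PHS2 are printed because they hold 3 of the 4 highest WT means of the set, with the G-box in capitals.
PHS2 (chr3:17306614-17306883, minus strand): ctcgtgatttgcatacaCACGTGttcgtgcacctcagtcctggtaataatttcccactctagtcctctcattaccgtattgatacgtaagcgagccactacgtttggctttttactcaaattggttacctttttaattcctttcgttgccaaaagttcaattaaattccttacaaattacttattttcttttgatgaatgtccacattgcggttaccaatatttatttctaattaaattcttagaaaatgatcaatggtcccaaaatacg
CPUORF47 (chr5:758124-758393, plus strand): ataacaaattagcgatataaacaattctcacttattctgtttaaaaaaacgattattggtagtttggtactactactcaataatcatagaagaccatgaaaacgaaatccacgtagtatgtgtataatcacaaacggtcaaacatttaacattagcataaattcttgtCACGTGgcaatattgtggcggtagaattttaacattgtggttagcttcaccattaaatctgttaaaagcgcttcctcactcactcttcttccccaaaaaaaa
AT3G53400 (chr3:19797857-19798126, plus strand): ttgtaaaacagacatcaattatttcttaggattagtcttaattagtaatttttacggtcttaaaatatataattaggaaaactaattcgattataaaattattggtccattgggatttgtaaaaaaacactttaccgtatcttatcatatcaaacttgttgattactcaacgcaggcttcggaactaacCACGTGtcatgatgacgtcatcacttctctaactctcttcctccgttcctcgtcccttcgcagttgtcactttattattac

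The other motifs searched were near or below their share of all promoters. TTGAC, the core of the W-box of WRKY factors, was in 20 promoters (52.6%, against 49.9% of all), CCGAC, the core of the dehydration-responsive element, in 5 (13.2%, against 16.4%), TGGGCC in 4 (10.5%, against 20.4%), and the GCC-box GCCGCC in 0 (against 2.57%).

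The remaining genes of starch breakdown, in a list of 23 chosen after the values of GWD1, GWD3 and PHS2 were seen and therefore not tested, were mostly higher in amiRNACWIN24 too. Besides those 3 members, 19 had an amiRNACWIN24 mean of 2 RPKM or more, and 17 of the 19 had the higher mean log2 value in amiRNACWIN24, against 58.4% of all genes. Every amiRNACWIN24 value lay above every WT value in 12 of the 19, against 29.3% of all genes. Their median log2 difference was 0.41, against 0.09 over all genes. With the exon length trend of each library removed it was 0.16, against 0.04 over all annotated genes, and 15 of the 19 were above 0, against 56.7%. The 19 include BAM3, the main plastid beta-amylase of leaves, which met the threshold but was left out by name. Its place in these counts therefore follows from the rule. BAM3 held 164 ± 24.2 RPKM in amiRNACWIN24 and 65.1 ± 3.39 RPKM in WT. ISA3, a debranching enzyme, came closest to the threshold from below, at 48.5 ± 2.17 RPKM in amiRNACWIN24 and 23.2 ± 0.713 RPKM in WT, its lowest amiRNACWIN24 library 1.90 times its highest WT library. BAM5, a beta-amylase outside the plastid, held 156 ± 31.1 RPKM in amiRNACWIN24 and 58.8 ± 16.5 RPKM in WT. PHS1, the plastid phosphorylase, held 93.2 ± 6.21 and 51.3 ± 3.03 RPKM, the alpha-amylase AMY3 75.8 ± 4.44 and 41.7 ± 4.09 RPKM, and the cytosolic glucanotransferase DPE2 70.3 ± 4.70 and 42.7 ± 1.19 RPKM in amiRNACWIN24 and WT (SD, n = 4 each). The plastid beta-amylase BAM1 lay within its replicate spread, at 40.1 ± 4.44 RPKM in amiRNACWIN24 and 40.8 ± 3.50 RPKM in WT, as did BAM4, at 34.2 ± 6.64 and 34.3 ± 7.84 RPKM. The phosphoglucan phosphatase gene LSF2 had the lower mean in amiRNACWIN24, at 30.7 ± 2.87 RPKM against 34.2 ± 2.04 RPKM in WT.

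**Figure D2:**
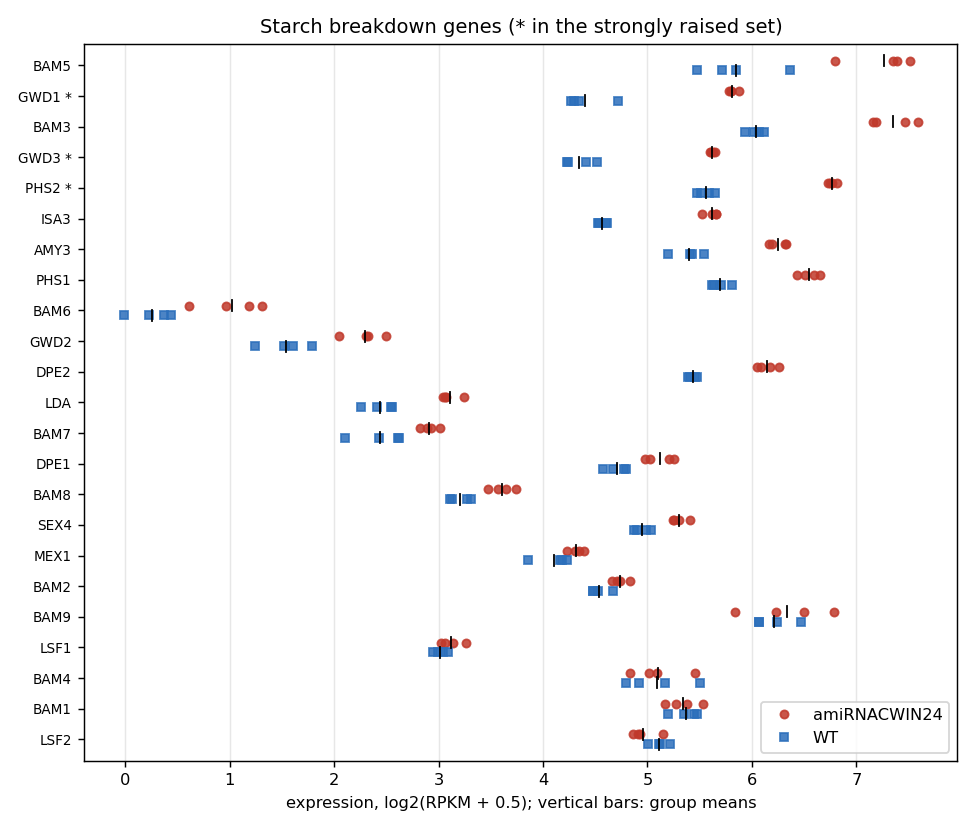
Expression of 23 starch breakdown genes as log2(RPKM + 0.5), with circles for amiRNACWIN24 above squares for WT, a bar at each group mean, and rows ordered by the difference. The upper rows, GWD1, BAM3, GWD3 and PHS2 among them, are separated between the genotypes, and the lowest rows, BAM4, BAM1 and LSF2, overlap.

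The 2 genes annotated as a peptide upstream protein, whose transcripts carry a conserved short reading frame ahead of the main one, had the highest and the next highest amiRNACWIN24 mean of the set. CPUORF47 (AT5G03190) stood at 331, 351, 371 and 336 RPKM in amiRNACWIN24 replicates 1 to 4, against 142, 143, 149 and 126 RPKM in WT. AT3G53400 stood at 246, 249, 265 and 224 RPKM in amiRNACWIN24, against 106, 93.3, 99.9 and 76.5 RPKM in WT. WT replicate 4 was the lowest WT library in both. These are the only 2 genes in the table with that annotation, and they differ in position: CPUORF47 lies on chromosome 5 and AT3G53400 on chromosome 3.

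COR27, a night-time repressor of clock genes that cold also raises, stood at 7.31, 4.53, 3.97 and 3.21 RPKM in amiRNACWIN24 replicates 1 to 4, against 1.28, 1.46, 0.877 and 1.01 RPKM in WT. Its amiRNACWIN24 values spread more than 2 times between replicates 1 and 4, with no overlap with WT. Of the 18 other evening and afternoon clock genes, all of them tested, 11 rose, 4 fell and 3 did not pass (limma adjusted p under 0.05), against 29.4% rising and 21.0% falling over all 19082 genes tested. The 11 include FKF1, PRR5, TOC1 and GI, which met the threshold of the set in these same libraries, so their rises follow from it. With the exon length trend removed there were 9 rises, and LUX (log2 fold change -0.22) and ZTL (0.02) no longer passed. Leaving out 1 library gave 8 to 11 rises. The 4 falls were BOA, RVE8, LNK3 and LNK4. RVE8 and the LNK genes activate evening genes but are themselves expressed from the morning. A further 3 genes of the list, chosen for mention after their values were seen, are ELF4, COR28 and LNK3. ELF4, a subunit of the evening complex, held 14.4 ± 2.93 RPKM in amiRNACWIN24 and 4.98 ± 1.96 RPKM in WT (log2 fold change 1.48, SE 0.22, limma adjusted p = 0.00054). COR28, the relative of COR27, held 2.20 ± 0.648 and 1.24 ± 0.182 RPKM (log2 fold change 0.61, SE 0.19, limma adjusted p = 0.022). LNK3, of the LNK family of clock coactivators, fell to 15.6 ± 1.72 RPKM in amiRNACWIN24, against 28.9 ± 2.93 RPKM in WT (log2 fold change -0.87, SE 0.10, limma adjusted p = 0.00018).

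Morning clock genes moved the other way. Among 10 tested there were 1 rise, 6 falls and 3 that did not pass, with a median log2 fold change of -0.34 against 0.31 for the evening and afternoon list and 0.07 for all genes tested. LHY, a MYB repressor that binds the evening element, fell to 3.81 ± 0.787 RPKM in amiRNACWIN24, against 7.12 ± 1.35 RPKM in WT (log2 fold change -0.82, SE 0.16, limma adjusted p = 0.0022). Its partner CCA1 fell to 8.11 ± 1.56 RPKM, against 12.1 ± 2.06 RPKM in WT (log2 fold change -0.55, SE 0.15, limma adjusted p = 0.011). The 1 rise, PRR7 (log2 fold change 0.54), did not pass with the exon length trend removed (log2 fold change 0.10). The labels give no time of collection, so the hour at which each genotype was sampled is unknown here.

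Transcription factor and chaperone genes made up a further group. AT1G07050, a gene of the CCT motif family to which several photoperiod regulators belong, stood at 4.71, 3.83, 2.67 and 2.78 RPKM in amiRNACWIN24 replicates 1 to 4, against 0.968, 0.932, 0.519 and 0.961 RPKM in WT. DJC76, a plastid DnaJ co-chaperone gene, stood at 15.8, 17.7, 16.7 and 10.0 RPKM in amiRNACWIN24, against 3.31, 3.6, 3.36 and 3.12 RPKM in WT. AT1G76580, a gene of the SBP-domain squamosa promoter-binding family, stood at 18.6, 19.0, 26.3 and 18.6 RPKM in amiRNACWIN24, against 8.85, 6.44, 6.73 and 6.94 RPKM in WT. WT was even in DJC76, and amiRNACWIN24 replicate 4 was its lowest amiRNACWIN24 library, while in AT1G76580 a single library stood above the rest of each group. DREB2B, a factor that binds the dehydration-responsive element, averaged 2.20 ± 0.0751 RPKM in amiRNACWIN24 and 0.725 ± 0.222 RPKM in WT. It shares 54.6% of its span with TBL32 on the other strand, and the authors' own comparison gives it a log2 fold change of 0.84. NAC007, known as VND4 and a regulator of xylem vessel formation, averaged 2.51 ± 0.146 RPKM in amiRNACWIN24 and 0.930 ± 0.159 RPKM in WT (SD, n = 4 each). These are the 2 lowest amiRNACWIN24 means of the set.

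Few cold and dehydration genes passed the test. Of 14 genes 11 were tested, with 2 rises, 1 fall and 8 that did not pass, against 29.4% rising and 21.0% falling over all genes tested, and a median log2 fold change of 0.05 against 0.07. The count of rises depended on single libraries: it was 4 without WT replicate 2 and 1 without any of amiRNACWIN24 replicates 1, 3 and 4 or WT replicates 3 and 4 in turn. It was 4 with the exon length trend removed, 5 without WT replicates 1 and 2, and 1 with the replicate block. The rises were RD29A and CBF3, and CBF3, at a log2 fold change of 0.40, did not pass in any of those 5 fits without 1 library (0.28 to 0.40), with the replicate block or with no filter on low values. RD29A, a dehydration-responsive gene with several DREB sites, rose to 37.1 ± 3.70 RPKM in amiRNACWIN24, against 17.8 ± 4.61 RPKM in WT (log2 fold change 1.07, SE 0.16, limma adjusted p = 0.00051), whereas KIN1 fell to 164 ± 32.7 RPKM, against 570 ± 78.0 RPKM in WT (log2 fold change -1.80, SE 0.15, limma adjusted p = 2.5e-05). Of 9 heat shock genes 3 were tested, of which HSP90.1 rose (log2 fold change 0.44, SE 0.12, limma adjusted p = 0.013, not passing at 0.27 with the exon length trend removed) and HSP101 and HSP70 did not pass.

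Immune receptors contributed 3 TIR-NBS-LRR genes. AT5G46520, named VICTR after a root growth response to a small compound, stood at 4.03, 4.02, 4.68 and 3.95 RPKM in amiRNACWIN24 replicates 1 to 4, against 1.56, 1.20, 1.01 and 1.07 RPKM in WT. Its relative AT5G46510, named VICTL, stood at 16.5, 15.4, 19.95 and 16.8 RPKM in amiRNACWIN24, against 7.60, 5.04, 6.47 and 7.11 RPKM in WT. Replicate 3 was the highest amiRNACWIN24 library and replicate 1 the highest WT library in both genes, which lie 600 bp apart on chromosome 5, at 18860234 to 18867015 and 18867616 to 18872494 in TAIR10. No other pair of the 38 lay within 10 kb. AT5G41550, at another site on chromosome 5, averaged 2.78 ± 0.770 RPKM in amiRNACWIN24 and 0.737 ± 0.156 RPKM in WT (SD, n = 4 each). As near relatives, these receptor genes can share reads, and how such reads were counted is not given in the sources used here.

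TIR-NBS-LRR genes that reached a mean of 2 RPKM in amiRNACWIN24 lay higher there than in WT as a group. The rest of the family was not counted, and this filter favours genes that are higher in amiRNACWIN24. Of 91 genes with that annotation, 45 had an amiRNACWIN24 mean of 2 RPKM or more, 42 of them outside the set. All 42 had the higher mean log2 value in amiRNACWIN24, against 58.4% of all genes, and in 38 the groups did not overlap, against 29.3%. Their median log2 difference was 0.82, against 0.09 over all genes. The median exon length of the 45 genes was 4249 nt against 1797 nt over all genes. With the exon length trend removed, the median difference of the 42 was 0.18 and 33 were above 0, against 0.04 and 56.7% over all annotated genes.

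Pentatricopeptide repeat genes with PCMP names contributed 5 members, all of low level. PCMP-E74 stood at 2.52, 2.12, 2.82 and 2.69 RPKM in amiRNACWIN24 replicates 1 to 4, against 0.899, 0.288, 0.493 and 0.684 RPKM in WT, and WT replicate 1 was the highest WT library. PCMP-E79 averaged 2.82 ± 0.372 RPKM in amiRNACWIN24 and 0.813 ± 0.297 RPKM in WT. PCMP-E4 averaged 2.62 ± 0.361 and 0.578 ± 0.307 RPKM, PCMP-E99 4.88 ± 0.456 and 1.78 ± 0.341 RPKM, and PCMP-A5 4.15 ± 0.768 and 1.41 ± 0.347 RPKM in amiRNACWIN24 and WT (SD, n = 4 each). Of the 72 other PCMP genes with an amiRNACWIN24 mean of 2 RPKM or more, 71 had the higher mean log2 value in amiRNACWIN24, against 58.4% of all genes, with a median log2 difference of 0.46. With the exon length trend removed the median was 0.24 and 67 of the 72 were above 0, against 56.7% of all annotated genes. The filter on the amiRNACWIN24 mean favours genes that are higher there, and the rest of the 177 PCMP genes were not counted.

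JAL35, a jacalin-related lectin gene also called JR1 for its response to jasmonate, stood at 221, 237, 215 and 213 RPKM in amiRNACWIN24 replicates 1 to 4, against 87.2, 101, 97.3 and 85.2 RPKM in WT. Each group was tight, with 222 ± 10.7 RPKM in amiRNACWIN24 and 92.7 ± 7.69 RPKM in WT (SD, n = 4 each). Its neighbour JAL34 on the other strand, which overlaps it over 631 bp, held 3.42 ± 0.286 RPKM in amiRNACWIN24 and 1.29 ± 0.470 RPKM in WT. Of 17 jasmonate synthesis and response genes, none of them in the set and all tested, there were 13 rises, 0 falls and 4 that did not pass, against 29.4% rising and 21.0% falling over all genes tested, and the median log2 fold change was 0.76 against 0.07. Without WT replicate 1 there was 1 fall. The lipoxygenase gene LOX2, left out by name and short of the threshold, rose to 605 ± 39.1 RPKM in amiRNACWIN24, against 279 ± 18.2 RPKM in WT (log2 fold change 1.11, SE 0.09, limma adjusted p = 2.5e-05). The storage protein gene VSP1, chosen for mention after its values were seen, rose to 3071 ± 74.1 RPKM, against 1695 ± 351 RPKM in WT (log2 fold change 0.88, SE 0.16, limma adjusted p = 0.0014). Wound and touch genes gave 5 rises, 0 falls and 5 that did not pass among 10 tested of 11, against the same 29.4% rising over all genes, and 10 rises without WT replicates 1 and 2. They were led by the cell wall enzyme gene TCH4 (log2 fold change 1.86, SE 0.35, limma adjusted p = 0.0017).

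Cell wall and transport genes stood at low to middle levels. LAC1, a laccase of the family that polymerises lignin, stood at 6.75, 5.96, 5.64 and 7.18 RPKM in amiRNACWIN24 replicates 1 to 4, against 1.09, 1.62, 2.40 and 2.18 RPKM in WT. BXL5, a glycosyl hydrolase of the beta-xylosidase type, stood at 8.50, 10.4, 9.50 and 9.85 RPKM in amiRNACWIN24, against 2.41, 3.65, 2.39 and 3.21 RPKM in WT. Replicate 1 was the lowest WT library in LAC1, unlike in most of the set. ABCG34, an ATP-binding cassette transporter of the pleiotropic drug resistance type, averaged 14.7 ± 1.59 RPKM in amiRNACWIN24 and 5.58 ± 0.898 RPKM in WT. YSL8, of the yellow stripe-like family of metal chelate carriers, averaged 8.59 ± 0.356 and 3.63 ± 0.468 RPKM, and NPF5.12 2.52 ± 0.302 and 0.771 ± 0.139 RPKM in amiRNACWIN24 and WT (SD, n = 4 each). Indole glucosinolate genes, defence compounds' synthesis enzymes and regulators of which 3 met the threshold but were left out by name, gave 11 rises and 1 fall among 15 tested of 21, against 29.4% rising and 21.0% falling over all genes tested. None of the 21 is a member, but the 11 rises include the 3 genes that met the threshold, whose rises follow from it.

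The other protein-coding members have varied annotations. AT1G55980, an oxidoreductase with an FAD or NAD(P) binding domain, stood at 2.74, 2.16, 2.96 and 2.26 RPKM in amiRNACWIN24 replicates 1 to 4, against 0.538, 0.273, 0.0708 and 0.358 RPKM in WT, the WT values resting on 25, 12, 3 and 16 reads. AT5G54720, with ankyrin repeats, stood at 2.04, 2.63, 4.78 and 1.59 RPKM in amiRNACWIN24, against 0.777, 0.387, 0.326 and 0.523 RPKM in WT, so that its amiRNACWIN24 libraries varied most widely, with replicate 3 on top. WAVE5, of the SCAR family that activates actin nucleation, stood at 7.65, 6.89, 8.41 and 8.58 RPKM in amiRNACWIN24, against 3.44, 0.830, 1.96 and 2.44 RPKM in WT. There the highest WT library, replicate 1, held more than 4 times the lowest, replicate 2. AT2G25730, with a FYVE zinc finger and the longest transcript of the set, averaged 10.4 ± 0.896 RPKM in amiRNACWIN24 and 3.06 ± 0.809 RPKM in WT. The protein kinase gene AT5G07620 averaged 4.26 ± 0.143 and 1.25 ± 0.272 RPKM, and the O-methyltransferase gene AT1G77520 9.51 ± 1.72 and 3.23 ± 0.662 RPKM in amiRNACWIN24 and WT. The transmembrane protein gene AT14A (AT3G28300) averaged 4.67 ± 0.752 RPKM in amiRNACWIN24 and 0.987 ± 0.310 RPKM in WT, and AT2G01008, annotated as a maternal effect embryo arrest protein, 6.06 ± 1.58 and 1.44 ± 0.587 RPKM (SD, n = 4 each). The table carries AT14A under more than one gene ID, so its reads may be shared with a copy.

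Several of the steepest ratios belong to genes that lie inside another gene. AT1G55673, uncharacterised and 479 nt long, was listed at 138, 84.6, 58.8 and 129 RPKM in amiRNACWIN24 replicates 1 to 4, from 1772, 1036, 745 and 1635 reads, and at 0 in all 4 WT libraries. It lies wholly within PSAG, a photosystem I gene on the other strand, which held 741 ± 39.8 RPKM in amiRNACWIN24 and 1189 ± 175 RPKM in WT. AT4G02720 stood at 6.11, 5.36, 8.23 and 6.72 RPKM in amiRNACWIN24, against 0, 0, 0.438 and 0.890 RPKM in WT. It is wholly covered by AT4G02725 on the other strand, at 18.5 ± 0.569 RPKM in amiRNACWIN24 and 22.7 ± 2.11 RPKM in WT. The long non-coding RNA gene AT3G22121 stood at 21.3, 24.8, 31.9 and 24.0 RPKM in amiRNACWIN24, against 3.54, 4.83, 3.45 and 6.85 RPKM in WT, and lies within the cell wall linker protein gene CWLP, at 440 ± 77.1 RPKM in amiRNACWIN24 and 465 ± 80.0 RPKM in WT. Neither host gene of AT4G02720 or AT3G22121 had the higher mean in amiRNACWIN24.

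Overlap was not rare in the set. Of the 38 genes 15 (39.5%) overlap another annotated gene, against 32.5% of all genes, and 12 (31.6%) overlap one on the other strand, against 28.3%. The set holds 35 protein-coding and 3 long non-coding genes, a non-coding share of 7.89% against 0.801% of all genes. In all 3 the higher group mean of the authors' own comparison lay over 10% away from the RPKM mean. Its log2 fold changes for them are 0.78 for AT3G22121, 0.72 for AT4G13918 and 0.72 for AT5G06695. The other 2 non-coding genes are AT4G13918, which shares 76.8% of its span with the receptor-like protein gene RLP50 and averaged 2.56 ± 0.586 RPKM in amiRNACWIN24 and 0.629 ± 0.239 RPKM in WT, and AT5G06695, which shares 99.7% with AT5G45030 on the same strand and averaged 7.53 ± 0.517 and 2.20 ± 1.09 RPKM (SD, n = 4 each). AT5G45030 itself held 3.04 ± 0.660 RPKM in amiRNACWIN24 and 4.90 ± 1.49 RPKM in WT. WAVE5 shares 29.5% of its span with the pollen allergen family gene AT4G18596 on the other strand, which held 0.548 ± 0.233 RPKM in amiRNACWIN24 and 4.66 ± 0.446 RPKM in WT, the opposite direction. DJC76 shares 86.4% of its span with an annotated gene that was not analysed here. Whether reads were counted by strand is not given in the sources used here, so reads of these genes and their partners on the other strand cannot be told apart.

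The authors' deposited table of their own comparison gives a group mean and a log2 fold change for each of the 38 genes. For 31 of them (81.6%) its higher group mean lay within 10% of the RPKM mean, against 96.9% of all genes. All 7 that lay further apart are among the 15 that overlap another gene. Of these 15, 8 (53.3%) lay within 10%, against 93.4% of all genes that overlap another. The 23 members with no overlap all lay within 10%, against 98.6% of all genes with no overlap. For the 31 the authors' deposited table has log2 fold changes of 0.93 to 2.97, with a median of 1.59, and an FDR under 0.05 for 31 of the 31. That comparison is of the same genotypes in the same series, and the rule had already chosen these genes for their difference. With levels this close, the fold changes and FDR of the 31 largely follow from the rule and are no separate test. For the 7 the median in the authors' deposited table is 0.73, and AT1G55673, AT4G02720 and AT3G22121, at 0.61, 0.07 and 0.78, have an FDR of 0.68, 0.85 and 0.12 there. The large differences of these 3 genes in the RPKM table have no counterpart there.

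**Figure D3:**
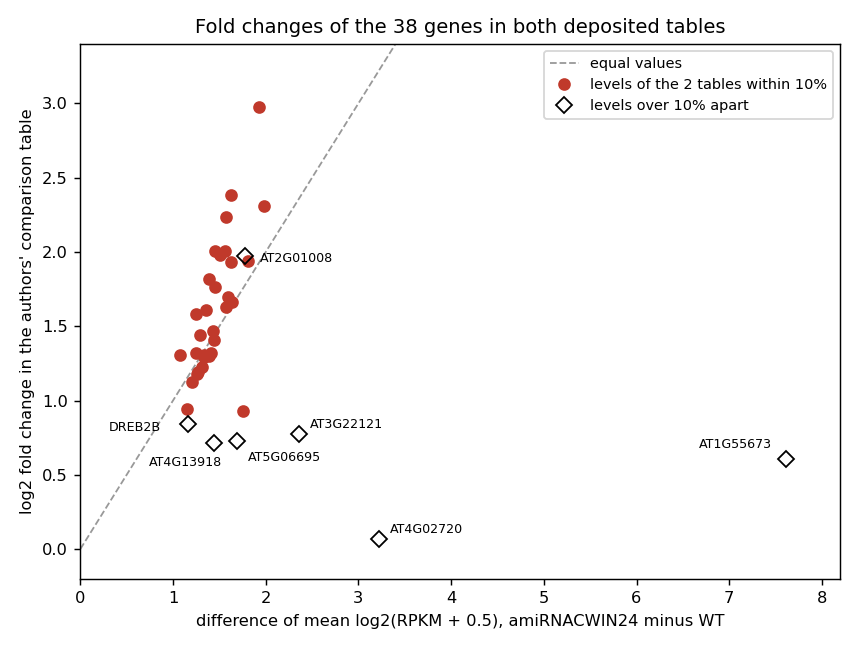
Log2 fold change of each of the 38 genes in the authors' comparison table (vertical) against the difference of mean log2(RPKM + 0.5), amiRNACWIN24 minus WT (horizontal), with a dashed line at equal values. Filled circles are the 31 genes whose levels in both tables lie within 10% and open diamonds the 7 further apart, of which AT1G55673, AT4G02720 and AT3G22121 lie far to the right of the line; the position of AT1G55673 is set by the pseudocount, since its WT values are 0.

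Long genes were higher in amiRNACWIN24 in general, and this touches many of the 38. For each gene, the log2 value in a library was taken as its deviation from the gene's mean over all libraries. The slope of this deviation per doubling of exon length, over 18994 genes, was 0.19 to 0.25 in the amiRNACWIN24 libraries. It was -0.37 to -0.13 in the WT libraries. The deviations cancel over the libraries, so opposite signs follow once the groups differ. Only the difference between the groups can be read from these slopes, not a rise or fall of RPKM with length within either group. The 38 genes have a median exon length of 2020 nt (479 to 8310 nt), against 1797 nt over all genes and 1092 nt for the 344 genes that met the same threshold in the opposite direction. With the trend removed within each library, all 38 kept a higher mean log2 value in amiRNACWIN24, with a median difference of 1.23 against 1.45 as deposited. The rule was then met by 35 genes, of which 15 are members.

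The difference shrank more in the longer genes. The trend removed depends on exon length alone, so the size of each drop was fixed by the gene's length. The log2 difference was 0.69 with the trend removed and 1.41 as deposited for GWD1, 0.72 and 1.27 for GWD3, and 0.78 and 1.21 for PHS2. It was 0.59 and 1.33 for AT5G46510, 0.85 and 1.75 for WAVE5, and 0.61 and 1.64 for AT2G25730. None of these 6 met the rule after removal. Shorter genes kept theirs, with 1.74 and 1.62 for COR27, 1.96 and 1.98 for DJC76, 1.58 and 1.56 for AT1G07050 and 1.96 and 1.93 for AT1G55980. The peptide upstream genes lay between, with 1.17 and 1.31 for CPUORF47 and 1.25 and 1.39 for AT3G53400.

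**Figure D4:**
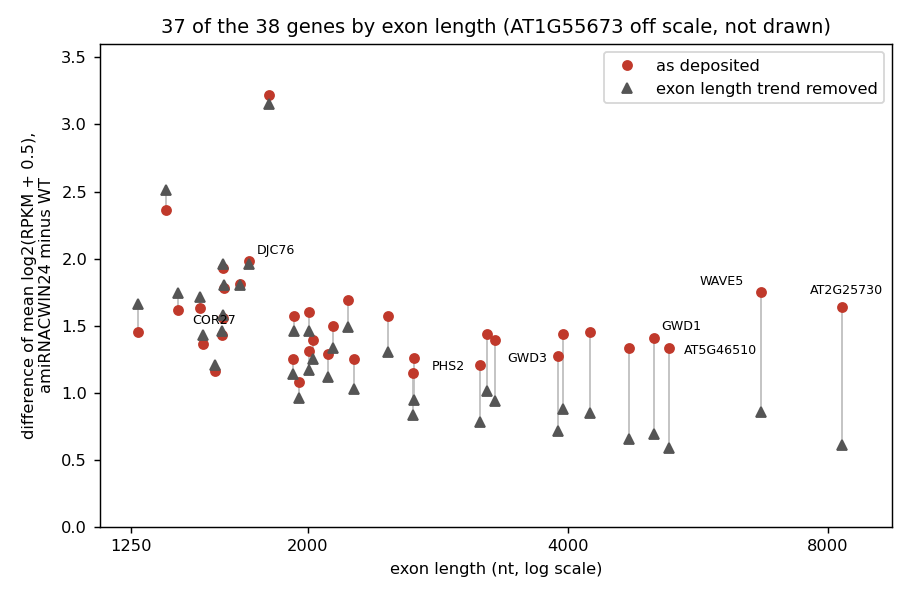
Difference of mean log2(RPKM + 0.5), amiRNACWIN24 minus WT, against exon length in nucleotides (log scale) for 37 of the 38 genes, as deposited (circles) and with the exon length trend of each library removed (triangles), joined by a line for each gene; AT1G55673 is not drawn. The drop is set by exon length alone, since the trend is a function of length. It reaches 1.03 for AT2G25730, and the difference grew with the trend removed in several of the shortest genes, such as COR27 (1.74 against 1.62).

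Single libraries recurred at the ends of the groups. Replicate 1 was the highest WT library for 23 of the 38 genes (60.5%), against 18.0% of all genes, and replicate 3 was the highest amiRNACWIN24 library for 20 (52.6%), against 36.9%. The coefficient of variation had a median of 11.6% in amiRNACWIN24 and 21.7% in WT over the members, against 9.04% and 11.3% over all genes. Since the rule compares the lowest with the highest library, WT replicate 1 set the upper WT level for most members, and without it 111 genes met the rule.

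The threshold fell within a run of similar genes. Just inside it were WAVE5, ABCG34, AT5G46510 and AT5G54720, whose lowest amiRNACWIN24 library was 2.0, 2.01, 2.03 and 2.04 times the highest WT library. Just outside it were a calmodulin binding protein gene (AT5G04020) at 1.99 times, the glucomannan synthase family gene CSLA11 at 1.98, the organelle RNA editing factor gene PCMP-E10 at 1.97 and the calcium pump gene ACA1 at 1.97. At the level threshold DREB2B was the lowest member at a mean of 2.20 RPKM in amiRNACWIN24, and AT4G37682 met the ratio but lay below the threshold at 1.70 RPKM.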

How the data were processed

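The authors deposited RPKM values (reads scaled to exon length and library size), 1 column per library, and a comparison table holding a group mean, a fold change, a log2 fold change recorded here as a score, and p-values, per the file headers. Libraries were 125 bp paired-end, per the labels' protocols, and TAIR10 is the build that the submitters' processing notes name. Aligner, counter and strand setting were not given in the sources used here. All 38 genes matched RefSeq's TAIR10.1 annotation with the same coordinates. Low RPKM values were whole multiples of 1 read (within 0.05 reads for 99.6% to 99.7% of values), which gave the reads quoted; these cover counting error only. Tests used limma 3.58.1 (R 4.3.3) on log2(RPKM + 0.5), which understates the change of low genes, keeping genes whose mean over all libraries reached 1 RPKM, with Benjamini-Hochberg adjustment over all 19082. The procedure was tested on simulated data. The exon length trend was a spline, fitted in each library to deviations from the gene means and then removed. Members and lists were chosen with earlier results of these data known. Genes named are the members with the steepest ratios, highest levels, shared families or a place near the threshold (34 of 38), the other 4 members so that all are accounted for, and up to 4 tested genes of each list by p. Alternatives were other pseudocounts, filters, scalings, thresholds, eBayes without a trend, the replicate number as a block, and libraries left out. The promoter sequence of 1 member is not reported here.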

Additional observations from a re-analysis of the deposited data

Results flagged for a closer look

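In 5 of 144 groups of 4 values looked at, 1 library lay far from the other 3 (Dixon's ratio above its 95% critical value); chance flags about 1 in 20 groups. AT1G76580, the SBP-domain gene, held 26.3 RPKM in amiRNACWIN24 replicate 3 against 18.6 to 19.0 RPKM in the other amiRNACWIN24 libraries. AT5G46520 (VICTR) held 4.68 RPKM in amiRNACWIN24 replicate 3 against 3.95 to 4.03 RPKM in the others. HSP70 (AT3G12580), a heat shock gene outside the set, held 6.46 RPKM in amiRNACWIN24 replicate 3 against 3.96 to 4.37 RPKM in the others. GWD1 held 25.7 RPKM in WT replicate 1 against 18.8 to 19.8 RPKM in the other WT libraries. AT1G07050 held 0.519 RPKM in WT replicate 3 against 0.932 to 0.968 RPKM in the others.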

How the results depend on the processing

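The set of 38 depends on its thresholds and scaling. It held 21 genes at a mean of 5 RPKM or more, 418 at a ratio over 1.5, 4 at a ratio over 3 (AT1G55673, AT4G02720, AT1G55980 and AT3G22121), 23 with median-of-ratios scaling, 23 without overlapping genes, and 167 without WT replicates 1 and 2. Leaving out 1 library gave 40 to 111 genes, the 111 without WT replicate 1, and no member was lost. Dropping a library can only loosen the ratio, while the amiRNACWIN24 mean can move either way. Median-of-ratios scaling removed GWD1, GWD3 and PHS2 among 15 members. Quantile normalization gave 45 genes, 30 of them members, and removal of the exon length trend 35, 15 of them members. No member changed direction under any alternative run. For runs that changed only the pseudocount, filter, eBayes setting, replicate block or libraries, the rule had fixed this in advance. Over all genes, 5611 rises became 2877 with the exon length trend removed, and leaving out 1 library gave 4648 to 5654 rises and 3243 to 4459 falls. The 44 rises and 12 falls in the 7 pathway lists ranged over 35 to 50 and 10 to 12 when 1 library was left out. Those 44 include the clock and indole glucosinolate genes that met the rule but were left out by name. HSP101 turned to -0.24 with the exon length trend removed. HSP70, at 0.01, turned to -0.04 with median-of-ratios scaling, -0.04 with quantile normalization, -0.27 after removal of the length trend, and -0.09 when WT replicates 1 and 2 were both left out, and ranged from -0.16 (without WT replicate 1) to 0.11 (without WT replicate 2) with 1 library left out, at -0.13 for amiRNACWIN24 replicate 3; the cause was not tested. The replicate numbers did not pair the samples (correlations of deviations -0.27, 0.14, -0.32 and 0.53 for replicates 1 to 4, and not every sample correlated best with its own number); the replicate block gave 5581 rises and 3590 falls over all genes and 46 rises and 11 falls in the lists. At low levels a few reads set the WT values, as with 3 reads for AT1G55980 in WT replicate 3.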
